A study of Mus musculus with 9 samples.

Results

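The genes described here, 6 of 52661 gene rows measured in mouse embryonic fibroblasts, were singled out because their measured RNA levels rose from wild type cells to cells lacking the copper importer Ctr1 and rose again when those cells were given a copper chelator. They are Svop, S100a16, Dhrs9, Cpne2, Pcsk6 and Rasa4. All 6 were found by their Ensembl identifiers, and all 6 were among the 18408 genes with enough counts to be tested. The members were picked on their levels in all 3 groups, so the levels, folds and order given for them are a description and carry no test. Other genes show the same order, as given further on.

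The fibroblasts were of the strain C57BL/6 and had been immortalised with T/t antigen. Wild type cells kept Ctr1, whose gene is Slc31a1. The Ctr1-null cells carry the genotype Ctr1 -/- and bear the name FloxedCtr1 in their titles. Ctr1-null cells of the third group received bathocuproine disulfonic acid (BCS), for 48 hours at 500 µM in the labels of the samples but at 500 mM in the record of the series. All groups were grown in a medium with N2 supplement, EGF and FGF-2, and no group pairs BCS with wild type cells, so an effect of BCS that does not need the loss of Ctr1 cannot be told apart from one that does. Each group held 3 libraries. The labels do not tell whether replicates were separate cultures, and p-values then measure only the spread between these libraries, which may be technical.

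Ctr1 carries reduced copper across the plasma membrane, and BCS binds reduced copper outside the cell. Inside the cell copper is handed by chaperones to enzymes such as cytochrome c oxidase and superoxide dismutase. None of the 6 genes encodes a copper transporter or a copper chaperone. Svop encodes a transporter-like protein of synaptic vesicles, related to the SV2 proteins. S100a16 encodes a small calcium-binding protein of the S100 family, and Cpne2 encodes a copine, which binds membrane lipids in the presence of calcium. Rasa4, also called CAPRI, encodes a GTPase-activating protein that switches Ras off in response to calcium. Pcsk6, also called PACE4, is a proprotein convertase of the secretory pathway that cleaves precursors of growth factors. Dhrs9 is a short-chain dehydrogenase that acts on retinol and on steroids.

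The stretches just upstream of the transcription start are shown for 4 genes, to let the start regions of genes with the same order of levels be compared. RefSeq start windows on GRCm38.p6 were matched for 5 of the 6 genes, 6 windows in all, with none for Svop. The sequences run 5′ to 3′ on the plus strand and end at the RefSeq start or, where GENCODE M21 places an exon earlier, before that exon. For Pcsk6 the annotated exon covers the window, and its bases are not printed. Capitals mark the GC box letters GGGCGG and the metal response element core, TGCACNC or TGCGCNC, each searched on both strands. The S100a16 stretch lies at chr3:90540896-90541145 before the second of its 2 RefSeq starts, that of Dhrs9 at chr2:69380212-69380444, that of Cpne2 at chr8:94532778-94532989 and that of Rasa4 at chr5:136083666-136083915.
S100a16: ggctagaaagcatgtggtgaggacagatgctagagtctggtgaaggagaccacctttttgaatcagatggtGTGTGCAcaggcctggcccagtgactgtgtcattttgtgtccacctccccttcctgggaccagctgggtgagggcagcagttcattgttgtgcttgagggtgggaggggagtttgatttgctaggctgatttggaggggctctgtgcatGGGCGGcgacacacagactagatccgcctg
Dhrs9: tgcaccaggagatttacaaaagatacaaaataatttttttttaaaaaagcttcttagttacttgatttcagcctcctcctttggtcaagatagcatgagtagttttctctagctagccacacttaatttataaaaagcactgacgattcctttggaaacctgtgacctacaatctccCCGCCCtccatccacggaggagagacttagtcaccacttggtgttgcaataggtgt
Cpne2: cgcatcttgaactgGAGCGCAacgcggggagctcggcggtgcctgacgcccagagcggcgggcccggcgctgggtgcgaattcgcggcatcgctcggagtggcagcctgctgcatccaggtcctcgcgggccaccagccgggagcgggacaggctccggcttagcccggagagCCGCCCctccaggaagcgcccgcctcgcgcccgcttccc
Rasa4: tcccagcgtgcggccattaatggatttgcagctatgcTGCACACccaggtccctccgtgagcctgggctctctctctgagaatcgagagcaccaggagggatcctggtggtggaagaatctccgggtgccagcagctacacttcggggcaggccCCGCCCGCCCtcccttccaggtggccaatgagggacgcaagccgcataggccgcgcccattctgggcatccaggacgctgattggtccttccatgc

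The start regions differed widely in base composition. Over the 250 bases before the start, the G and C content was 40.4% for Dhrs9, 53.2% and 55.6% for the first and second start of S100a16, 63.2% for Rasa4, 74.4% for Cpne2 and 81.2% for Pcsk6, beside a median of 52.4% over 32851 windows. The number of CpG dinucleotides was 3 for Dhrs9, 1 and 3 for S100a16, 13 for Rasa4, 32 for Cpne2 and 40 for Pcsk6, beside a median of 6. Dhrs9 and S100a16 thus start in stretches poor in CpG and Cpne2 and Pcsk6 in stretches dense in it. GGGCGG was found in 5 of the 6 windows, that is in at least 1 window of each of the 5 genes, and in 32.7% of all windows. The metal response core, the letters that the metal-sensing factor MTF1 is known to bind, was found in the second S100a16 window and in those of Cpne2 and Rasa4, against 21.4% of all windows. The AP-1 letters TGANTCA were present in the second S100a16 window and the Dhrs9 window (6.75% of all windows), the antioxidant response core TGACNNNGC in the first S100a16 window (10.2%), and TATAAA in the Dhrs9 window alone among the 6 (12.4%). CACGTG was in none of the 6 (6.02% of all). A match is a run of letters and was not tested for binding.

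Before the levels, the libraries themselves need a description. Totals ran from 38962036 to 57206337 counts. Slc31a1 stood at 56.1, 54.8 and 54.9 CPM (counts on a common library scale, with totals corrected by TMM) in wild type replicates 1 to 3, at 2.54, 3.88 and 1.4 in the Ctr1-null libraries and at 3.24, 2.54 and 1.69 with BCS, low in every library labelled null. The 8 fibroblast markers summed to 15000 to 19400 CPM over the libraries, mainly through Fn1, Vim, Col1a1 and Col1a2, while Thy1 was at 0.297 to 0.496 CPM and Dcn at 0.0372 to 2.31 CPM, near 0. Wild type replicate 1 stood apart from the other wild type libraries on the first principal component over all genes, at -2.04 beside 67.1 and 63.3. Fat cell markers summed to 24.4 to 30.3 CPM in wild type, 58.8 to 85.5 in Ctr1-null and 67.4 to 81.8 with BCS. Both Ctr1-null groups thus lay above the wild type range, and most of each sum was Pparg. Of 7 such markers 4 were tested, and 1 (Pparg) was called higher in Ctr1-null against wild type, beside 0.00543% of all tested genes. Called higher over both steps, meaning BCS-treated Ctr1-null against wild type whatever the single steps did, were 3, beside 8.56% of all tested genes. Adipoq, Plin1 and Cidec had 14, 80 and 18 counts over all libraries. The part of the fat cell markers in the levels of the 6 genes was not tested. In these bulk samples more cells of a type and more RNA per cell cannot be told apart.

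Svop had the lowest level and the largest fold of the 6. It stood at 0.998, 1.38 and 1.1 CPM in the wild type libraries, at 2.74, 4.44 and 3.94 CPM in those of Ctr1-null cells and at 10.7, 7.48 and 9.06 CPM with BCS, replicates 1 to 3 in each group. The groups did not overlap, and the lowest BCS library was 68.5% above the highest Ctr1-null library. On the log2 scale Svop was 1.68 ± 0.23 (edgeR estimate ± SE, n = 3 per group) higher in Ctr1-null than in wild type cells and 1.29 ± 0.22 higher with BCS than without. The whole span was 2.97 ± 0.24, or 7.86-fold. Wild type levels rested on 48, 51 and 59 counts, and those with BCS on 586, 395 and 455, so the denominator of this fold is the least precise of the 6. The authors' deposited factors treat Svop differently in 1 library: relative to the other genes, its factor was 0.668 in wild type replicate 1 and 0.958 to 1.13 in the other 8. With those factors the whole span of Svop was 2.64 ± 0.21, and the 3 groups still did not overlap.

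Svop lies on GRCm38 chromosome 5, 114026910 to 114091570, on the minus strand, where it overlaps the protein-coding gene Usp30 of the other strand. Nothing in the sources used here says that reads were counted by strand, so reads of the overlap could be credited to either gene. Usp30 stood at 25.2 to 28.2 CPM in wild type, 25.3 to 26.7 in Ctr1-null and 30.2 to 32.1 with BCS, and was not called in any of the 3 comparisons. The 8 neuronal markers differed in level: Snap25 had 5 counts and Rbfox3 3 counts over all 9 libraries, while Tubb3 was at 6.3 to 15.1 CPM. Their sum ran from 58.5 to 63.3 CPM in wild type, 63.1 to 67.4 in Ctr1-null and 62.2 to 83.3 with BCS, most of it Map2. Of 5 neuronal markers tested, Stmn2 was called higher over both steps, with group means of 2.09, 6.58 and 8.0 CPM. Syt1, with means of 1.21, 1.58 and 2.26 CPM, was not called. Markers of other cell types were called higher too, where 8.56% of all tested genes were. Of 6 neural progenitor and glial markers tested 1 was, Fabp7, with group means of 0.247, 1.08 and 1.77 CPM. Sox2 and Nes of that list were at 10.3 to 23.7 and 107 to 223 CPM and were not called. Their log2 fold changes over both steps were -0.39 and -0.56 (edgeR adjusted p = 0.198 and 0.051). The median of the 6 tested was 0.65. Sox10 was at 0. The list summed to 156 to 249 CPM in wild type, 179 to 207 in Ctr1-null and 127 to 151 with BCS. Of 3 muscle markers tested 1 was, Des, with group means of 0.821, 2.67 and 5.31 CPM, where Myod1 was at 0 and the list summed to 4.22 to 4.49, 4.74 to 7.85 and 6.02 to 11.3 CPM. The part of these markers in the levels of the 6 genes was not tested.

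The 3 calcium-binding or calcium-responsive members rose by different steps. S100a16 (chromosome 3, 90537254 to 90543151, plus strand) stood at 5.86, 5.7 and 5.82 CPM in the wild type libraries, at 8.56, 11.2 and 10.1 CPM in those of Ctr1-null cells and at 16.9, 17.3 and 18.5 CPM with BCS. Its wild type libraries were almost level, with a coefficient of variation of 1.43%, and its groups were far apart. The 2 steps were close in size, 0.78 ± 0.12 on the log2 scale for the loss of Ctr1 and 0.82 ± 0.11 for BCS, which gives 3.03-fold over both.

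Cpne2 (chromosome 8, 94532990 to 94570531, plus strand) stood at 42.6, 44.3 and 44.8 CPM in the wild type libraries, at 63.5, 63.2 and 62.4 CPM in those of Ctr1-null cells and at 70.6, 67.4 and 75.5 CPM with BCS. Most of its rise came with the loss of Ctr1: the first step was 0.52 ± 0.07 on the log2 scale and the second 0.18 ± 0.07. The lowest BCS library was 6.12% above the highest Ctr1-null library, so the second step of Cpne2 rests on a narrow gap. It had the smallest span of the 6, at 0.70 ± 0.07 or 1.62-fold.

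Rasa4 (chromosome 5, 136083916 to 136111860, plus strand) stood at 38.5, 30.5 and 29.6 CPM in the wild type libraries, at 55.1, 55.4 and 52.5 CPM in those of Ctr1-null cells and at 77.3, 69.9 and 85.8 CPM with BCS. Wild type replicate 1 was the highest wild type library, yet it stayed below every Ctr1-null library. The steps were 0.73 ± 0.11 and 0.51 ± 0.11 on the log2 scale and the span 1.24 ± 0.11. The annotated genes that overlap Rasa4 are the antisense Gm15701 with at most 10 counts in a library, the snRNA gene Gm22214 with at most 3, and Mir7035 with none.

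Pcsk6, the convertase (chromosome 7, 65861734 to 66050386, plus strand), stood at 36.3, 33.9 and 37.1 CPM in the wild type libraries, at 52.8, 62.1 and 49.3 CPM in those of Ctr1-null cells and at 79.5, 77.8 and 89.9 CPM with BCS. Its steps were nearly equal, 0.61 ± 0.10 and 0.59 ± 0.10 on the log2 scale, for a span of 1.20 ± 0.10 or 2.3-fold. The lncRNA Gm20684 starts from the same region on the other strand and held 8 to 45 counts per library, 0.216 to 0.819 CPM, while Pcsk6 stood at 33.9 CPM or more. Gm45213, annotated on the same strand across Pcsk6, had 1 count in all.

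Dhrs9, the dehydrogenase (chromosome 2, 69380445 to 69404533, plus strand), stood at 16.9, 16.8 and 15.8 CPM in the wild type libraries, at 26.7, 28.7 and 26.9 CPM in those of Ctr1-null cells and at 32.5, 29.4 and 35.1 CPM with BCS. Like Cpne2 it rose mainly at the first step, by 0.73 ± 0.09 against 0.24 ± 0.08 on the log2 scale. The gap between the highest Ctr1-null and the lowest BCS library was 2.64%, the narrowest of the 6, and it is BCS replicate 2 that lies close. Over both steps Dhrs9 was 0.97 ± 0.09 higher, or 1.96-fold.

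**Figure D1:**
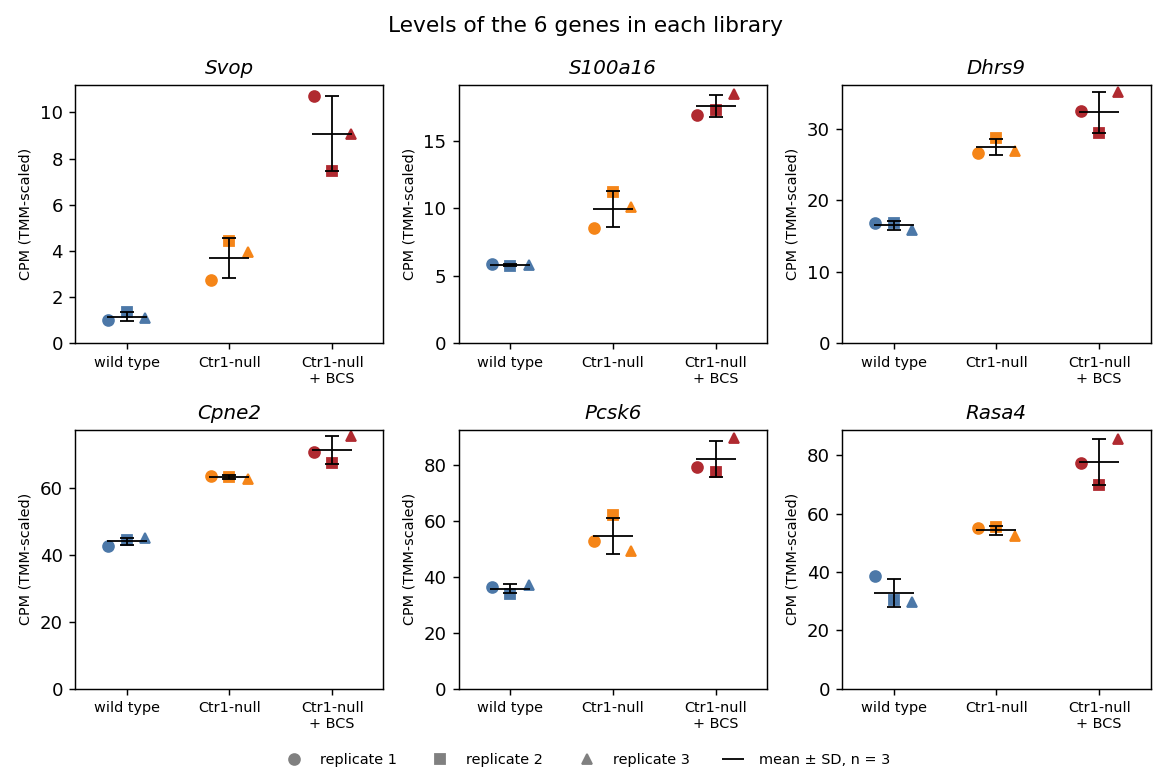
CPM (TMM-scaled totals) of each of the 6 genes, 1 panel per gene with its own axis from 0, by group, with a symbol per replicate and a bar for the mean ± SD (n = 3). The 3 groups do not overlap in any panel, and the gap between Ctr1-null and Ctr1-null with BCS is narrowest for Dhrs9 (2.64%) and Cpne2 (6.12%).

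Set side by side, the 6 genes fall into those that rose about equally at both steps and those that rose mainly at the first. The first step made up 48.9% of the log2 span of S100a16, 50.9% of that of Pcsk6, 56.6% of that of Svop and 58.5% of that of Rasa4, but 75.5% of that of Dhrs9 and 74.9% of that of Cpne2. Both steps use the same Ctr1-null libraries, one as the higher and the other as the lower group, so a high Ctr1-null level enlarges one step and shrinks the other. The shares were not tested against each other.

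**Figure D2:**
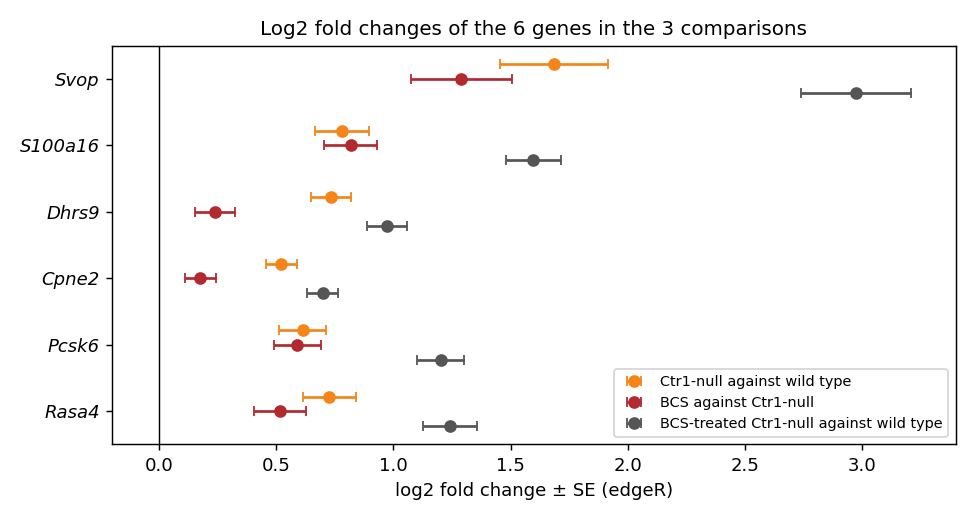
Log2 fold change ± SE (edgeR) of each of the 6 genes in the 3 comparisons, on the horizontal axis. Svop is farthest right at 2.97 over both steps, and the BCS step of Dhrs9 (0.24) and Cpne2 (0.18) is the smallest.

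By level per kilobase of exon, the order of the 6 was the same in all 3 groups: Cpne2, Rasa4, Pcsk6, S100a16, Dhrs9, Svop. In wild type cells the means were 18.7, 11.3, 8.12, 4.03, 3.85 and 0.343 CPM per kilobase. With BCS they were 30.4, 26.7, 18.7, 12.2, 7.56 and 2.68 CPM per kilobase. Some neighbours in this order overlapped between libraries. S100a16 (5.95 to 7.77) and Dhrs9 (6.24 to 6.69) overlapped in Ctr1-null cells, and Cpne2 (28.8 to 32.2) and Rasa4 (24 to 29.5) overlapped with BCS.

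Within groups the same libraries tended to be high. Ctr1-null replicate 2 held the highest Ctr1-null value for 5 of the 6 genes, BCS replicate 3 the highest BCS value for 5, and BCS replicate 2 the lowest for 5. Wild type had no such library: replicate 1 was highest for 3 genes and lowest for 2. How often each library is highest or lowest over all genes was not counted. Nothing particular to the 6 is therefore read from these counts. Averaged over the 6 genes, log2 CPM relative to each gene's own mean was -0.74, -0.74 and -0.79 in the wild type libraries, -0.04, 0.20 and 0.06 in Ctr1-null and 0.70, 0.56 and 0.78 with BCS. Wild type replicate 1, which stood apart over all genes, lay with the other wild type libraries in this average. The 6 were picked for wild type levels below those of Ctr1-null, so nothing is read from that.

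The background of such calls was uneven between comparisons. In edgeR's quasi-likelihood test with Benjamini-Hochberg adjustment, at an adjusted p under 0.05, 0 of the 6 were called in Ctr1-null against wild type, where 0.00543% of all tested genes were called higher and 0.00543% lower. For BCS against Ctr1-null 0 of 6 were called, with 0.038% of all genes higher and 0.0163% lower. For BCS-treated Ctr1-null cells against wild type 6 of 6 were called higher, with 8.56% of all genes higher and 7.28% lower. That split was 1576 higher and 1340 lower, against 2064 and 784 with library size alone, which moved the median of all genes to 0.105 on the log2 scale. At an unadjusted p under 0.05 the 3 comparisons held 3239, 2708 and 6063 genes. The members were picked on these contrasts, and nothing is read from their counts.

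Calls in the single steps depended on 1 library, on the tool, on the filter and on the scaling. Without wild type replicate 1, 6 of 6 were called higher in Ctr1-null against wild type, 4 in BCS against Ctr1-null and 6 over both steps, beside 9.22%, 0.547% and 15.7% of all genes. The log2 steps themselves moved little without it: Rasa4 went from 0.73 to 0.85 at the first step and Svop from 1.68 to 1.59. DESeq2 on all 9 libraries called 6, 4 and 6 members higher, beside 3.08%, 2.47% and 10.4% of all genes. Dhrs9 and Cpne2 were the 2 not called at the BCS step in either setting. With no filter on low counts edgeR called 6 members at the first step and 3 (Svop, S100a16 and Pcsk6) at the BCS step, beside 0.461% and 0.223% of all genes. At the first step it called Dhrs9 and Cpne2 with library size alone (0.0163% of all genes) and with the 1 CPM filter (0.0221%), and Dhrs9 with DESeq2's size factors (0.0109%) and with the authors' factors (0.0109%). None of these 4 settings called a member at the BCS step.

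The rising order without overlap was not rare. It held for 336 of 18408 tested genes, or 1.83%, and the falling order for 263, or 1.43%. Taken singly, no overlap with the higher level in Ctr1-null than in wild type held for 9.49% of genes, and with the higher level under BCS than in untreated Ctr1-null cells for 13.4%. With both steps at least as large as the smallest steps among the 6, 139 genes were in rising order, the 6 included. All 6 stayed in rising order with DESeq2's size factors, as did 317 of 18408 genes, and with library size alone (473). The same held with the authors' own factors (254 of 18408), with no filter (362 of 34933) and with the 1 CPM filter (292 of 13577). The 6 were picked for this order in these libraries, so nothing is read from their keeping it.

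The profiles most like the mean of the 6 were sought among 10549 other genes with at least 5 CPM in 1 group, by the root mean square difference of centred log2 CPM over 9 libraries, and the nearest 8 are named. Pla2g16, a phospholipase of adipocytes and other cells, was nearest at 0.123, with 7.7 ± 0.206, 12.5 ± 1.5 and 19 ± 3.33 CPM in the 3 groups (mean ± SD, n = 3). Ankrd29 followed at 0.165 and Adam8, a membrane-bound metalloprotease, at 0.171. Plekhg6 (0.185), the glutathione transferase Gstm4 (0.189), Samd12 (0.192), Tmem40 (0.192) and Fam53b (0.199) completed the list. All 8 were in rising order without overlap, which follows closely from likeness to genes picked for that order. Among the 6 themselves the same measure was 0.11 for S100a16, 0.132 for Pcsk6, 0.135 for Rasa4, 0.205 for Dhrs9, 0.311 for Cpne2 and 0.635 for Svop. S100a16 is thus nearest to the shared profile and Svop, with its larger steps, farthest, where the mean includes each of the 6.

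**Figure D3:**
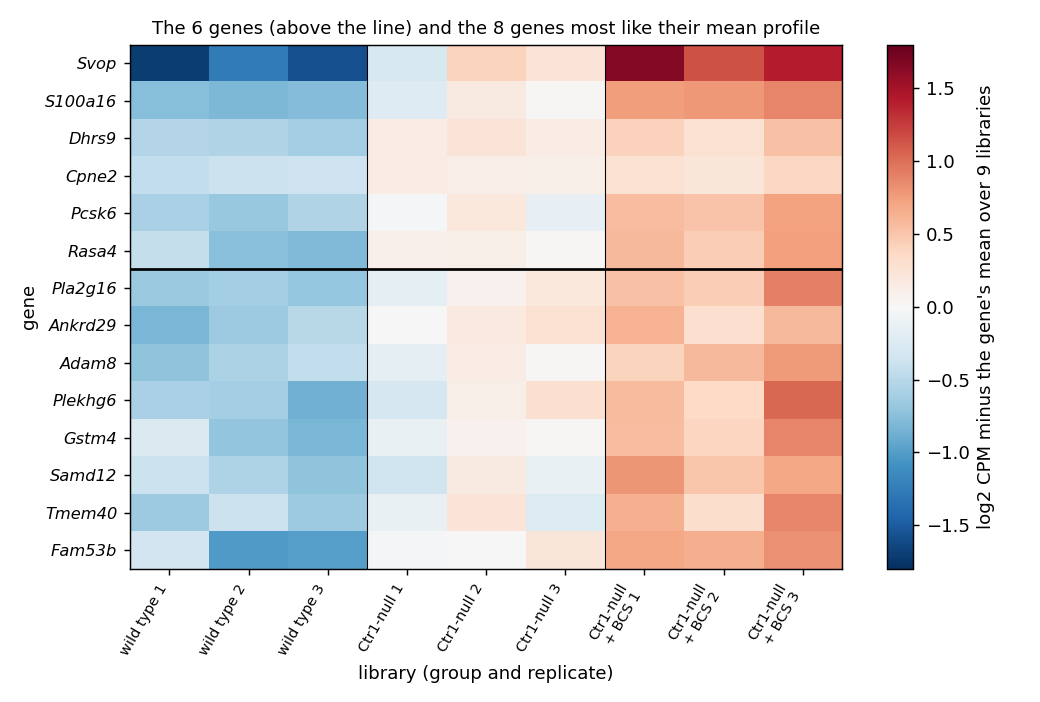
Log2 CPM minus each gene's mean over the 9 libraries, as colour, for the 6 genes above the line and the 8 genes most like their mean profile below it, with 1 column per library. Wild type columns are blue and BCS columns red in every row, and the Svop row has the deepest colours.

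Relatives of the 6 genes, which had no part in choosing them, were followed through lists by family and pathway. Over 11 lists, 109 relatives were tested. None was called in Ctr1-null against wild type or in BCS against Ctr1-null. There at most 0.038% of all tested genes were called in either direction, which leaves little to be read from a 0. Over both steps 12 of 109 were higher (11%) and 10 lower (9.17%), near the 8.56% and 7.28% of all genes, and their median log2 fold change was -0.01 beside 0.01 over all tested genes. Without wild type replicate 1 these counts were 26 higher and 20 lower over both steps (15.7% and 15.3% of all genes), and 18 higher and 16 lower in Ctr1-null against wild type (9.22% and 8.05% of all genes).

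Of 10 other S100 genes tested, 2 were called higher over both steps and none lower. The median log2 fold change of the 10 was -0.09. Without wild type replicate 1, 3 were called higher and 2 lower. S100a1 went from 8.94, 8.08 and 7.92 CPM in wild type to 11.9, 12.1 and 13.9 CPM with BCS, a log2 rise of 0.60 ± 0.16 (edgeR adjusted p = 0.032). S100a13, a secreted calcium- and copper-binding member, went from 23.5, 27.1 and 26.5 to 32.5, 34.1 and 30.9 CPM, a rise of 0.34 ± 0.08 (edgeR adjusted p = 0.024). Neither was in rising order over the 3 groups, and both rises were smaller than that of S100a16. The annexins, calcium-dependent membrane-binding proteins, split: Anxa8 rose by 0.63 while Anxa5 fell by 0.45 and Anxa1 fell by 0.49 on the log2 scale, of 10 tested. The first and second steps of Anxa8 were -0.38 and 1.0.

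Among 6 other copines tested, Cpne3 fell from 97.2, 125 and 119 CPM in wild type to 83.7, 83.6 and 78 CPM with BCS, by 0.48 on the log2 scale (edgeR adjusted p = 0.019), opposite to Cpne2. Cpne7 rose by 1.68 at 0.692, 0.738 and 0.518 CPM with BCS, a level under 1 CPM throughout. Cpne1 stood at 66.8, 69.2 and 64.2 CPM in wild type and at 74.9, 77.2 and 83.2 CPM with BCS and was not called.

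Around Rasa4, 1 of 7 other Ras GTPase-activating proteins tested was called lower over both steps and none was called higher. Rasal2 fell from 92.3, 104 and 102 to 69, 73.8 and 59.5 CPM, by 0.56 on the log2 scale (edgeR adjusted p = 0.014). Rasa1 and Nf1, which also switch Ras off, were not called, with log2 fold changes of -0.17 ± 0.07 and 0.12 ± 0.08.

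Furin, a convertase of the same secretory pathway as Pcsk6, went the other way. Of 6 other convertase genes tested it was the 1 called, falling from 102, 92.5 and 98 CPM in the wild type libraries to 82.8, 78.1 and 81.2 CPM in those of Ctr1-null cells and 69.4, 65.7 and 76.1 CPM with BCS, by 0.47 ± 0.08 over both steps (edgeR adjusted p = 0.0075). Its 3 groups were in falling order without overlap. Among 18 proteins known to be cut by convertases, Bmp2 (1.61) and Pdgfa (0.46) rose and Tgfb3 (-0.90) and Igf1r (-0.46) fell. Bmp2, a growth factor, went from 0.622 to 0.915 CPM in wild type to 2.25 to 2.78 CPM with BCS.

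Genes of retinoid metabolism moved in both directions around Dhrs9. Of 23 others tested, 3 were higher in BCS-treated Ctr1-null than in wild type cells. They were Dhrs3, a retinaldehyde reductase (1.78 ± 0.49), Cyp26b1, which breaks retinoic acid down (1.10 ± 0.28), and Rdh14 (0.41 ± 0.11). Their first and second steps were 1.01 and 0.77 for Dhrs3, 1.29 and -0.18 for Cyp26b1, and 0.02 and 0.39 for Rdh14. In the same comparison Crabp2, which carries retinoic acid in the cell, fell by 1.82. Rdh10, a retinol dehydrogenase like Dhrs9, fell by 0.63, with steps of -0.84 and 0.21. Wild type replicate 1 differed from its group in several of them: Dhrs3 stood at 21.5 there beside 7.38 and 7.9 CPM, and Crabp2 at 20.2 beside 61.8 and 67.4 CPM. Dhrs9, itself picked on its levels, was level across the 3. Of 5 retinoic acid receptors tested, Rxra and Rarg rose, and Rxra was in rising order at 68, 68.5 and 70.4, then 75.7, 88 and 93.8, then 99.4, 100 and 118 CPM, a log2 rise of 0.62 ± 0.10 (edgeR adjusted p = 0.0072).

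Svop had few relatives to compare in these cells. Svopl, Sv2b and Sv2c did not pass the filter, with 49, 11 and 63 counts over all libraries. Sv2a stood at 5.32, 2.65 and 2.34 CPM in the wild type libraries, 4.16, 4.96 and 6.77 CPM in those of Ctr1-null cells and 5.11, 5.39 and 5.72 CPM with BCS, and was not called. Of 10 synaptic vesicle genes tested, Rab3a rose by 0.70 ± 0.17 and no other was called.

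**Figure D4:**
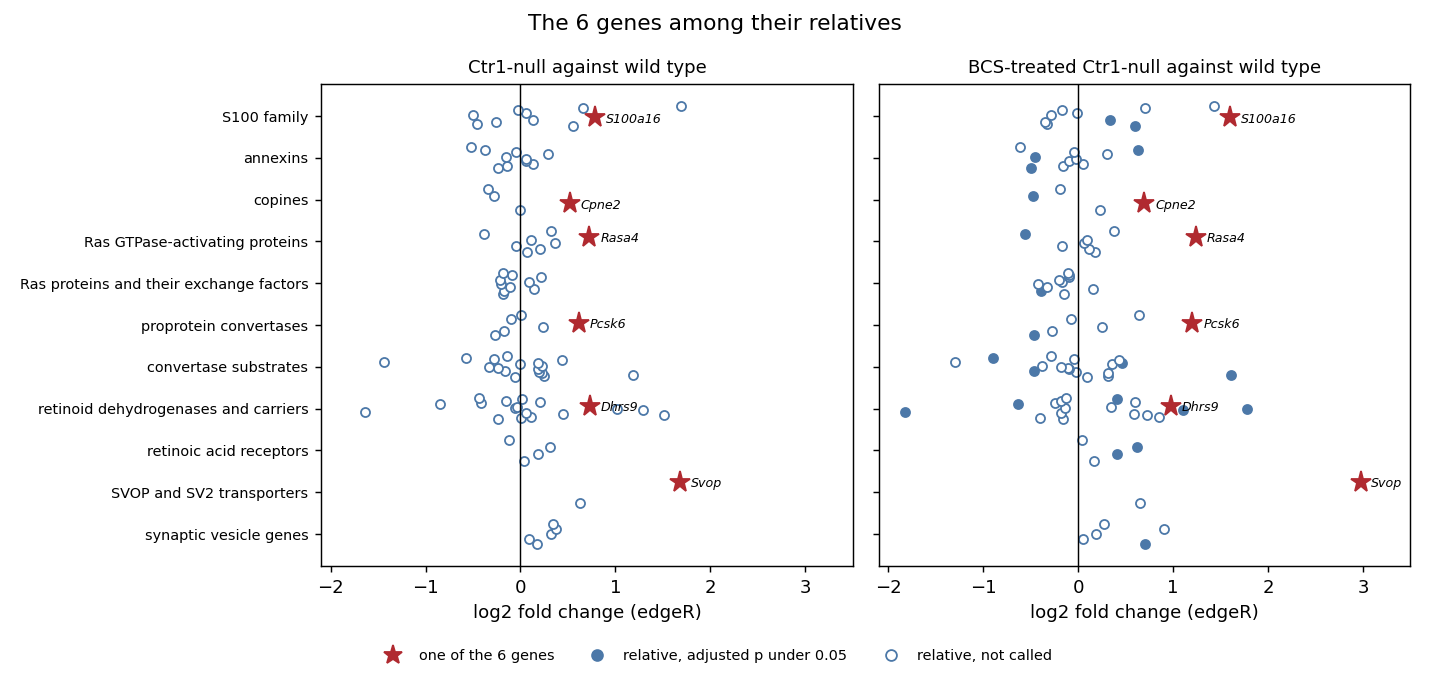
Log2 fold change (edgeR, horizontal axis) of the 6 genes (stars) and of their relatives with at least 1 CPM in a group mean (circles, filled at an adjusted p under 0.05), 1 row per list, for Ctr1-null against wild type and for BCS-treated Ctr1-null against wild type. Filled circles lie on both sides of 0 in the right panel, 12 of 109 tested relatives higher and 10 lower when those under 1 CPM are included.

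The nearest tested genes on each chromosome were called about as often as genes in general. Taking 2 on each side of each member, 3 of 24 neighbours (12.5%) were called higher over both steps and 2 (8.33%) lower, beside 8.56% and 7.28% of all genes, with a median of 0.07 on the log2 scale beside 0.01 over all tested genes. In the single steps 0 of 24 were called, and 0 of 24 were in rising order, where all-gene shares as low as 0.00543%, 0.038% and 1.83% leave little to be read from a 0. The neighbours of S100a16 that rose were S100a13 and S100a1, given above. Gm20684, which overlaps Pcsk6, rose by 1.44 ± 0.31 from 0.216 to 0.297 CPM in wild type to 0.681 to 0.819 CPM with BCS (edgeR adjusted p = 0.017), and without strand its reads cannot be told apart from those of Pcsk6. Selenos, on the far side of Pcsk6, fell by 0.43.

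Dhrs9 and its neighbour moved in opposite directions. Lrp2, which encodes the endocytic receptor megalin and lies 19.8 kb from Dhrs9, stood at 32.4, 30.1 and 30 CPM in the wild type libraries, at 37.6, 18.5 and 13.2 CPM in those of Ctr1-null cells and at 9.81, 8.05 and 6.15 CPM with BCS. It fell by 1.95 ± 0.34 over both steps (edgeR adjusted p = 0.0093), with the Ctr1-null libraries widely spread. Nlrc5, 5.72 kb from Cpne2, stood at 8.63, 3.3 and 2.94 CPM in wild type and at 14.5, 13.5 and 13.2 CPM with BCS but was not called (log2 1.47 ± 0.45, edgeR adjusted p = 0.054).

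**Figure D5:**
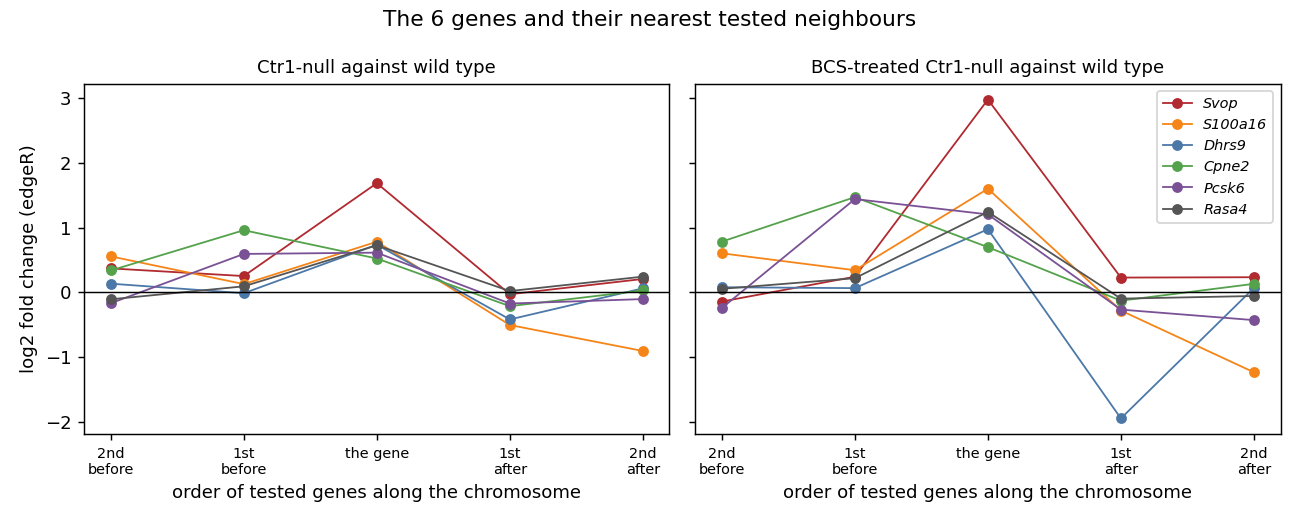
Log2 fold change (edgeR, vertical axis) of each of the 6 genes and of the 2 nearest tested genes on either side, in the order of the chromosome, for Ctr1-null against wild type and for BCS-treated Ctr1-null against wild type. The middle points are the genes chosen for rising. Nlrc5 lies above its neighbour Cpne2 in both panels (0.96 and 1.47), and Gm20684 (1.44) lies above Pcsk6 in the right panel.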

How the data were processed

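RNA of 9 mouse embryonic fibroblast libraries was sequenced from TruSeq RNA libraries, per the labels. Tools named in the submitters' processing notes are FastQC, STAR, Salmon and DESeq2, with the build GRCm38 and no versions or roles. Values of the main table are estimated counts, which the authors deposited unnormalised as whole numbers. The deposited scaled table holds signal values, the counts divided by the authors by a factor per gene and library. How the factors were made is not given in the sources used here.

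Counts were scaled by TMM and filtered (filterByExpr, minimum count 10, minimum total 15), which kept 18408 of 52661 genes. A quasi-likelihood fit of all 9 libraries in 3 groups in edgeR 4.0.16 (R 4.3.3) gave log2 fold changes, standard errors and 2-sided p-values, adjusted by Benjamini and Hochberg over all tested genes and called under 0.05, with 6 residual degrees of freedom (common biological coefficient of variation 0.169). CPM use TMM-scaled totals, and centred profiles use log2 CPM with a prior count of 2. Gene models and exon lengths come from GENCODE M21 on GRCm38. Start windows of 250 bases come from RefSeq on GRCm38.p6. A count of 0 allows up to 3 counts, a limit for counting error alone, because the reads carry no molecular identifiers.

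The 6 genes, the gene lists and the tests were chosen with earlier results of these data known. Named besides the 6 are Slc31a1, the called genes of each list (up to 4 in each direction), the neighbours, and the 8 most similar profiles, leaving out predicted genes. Usp30 and the other overlapping genes, Rasa1, Nf1, Cpne1, Svopl, Sv2b, Sv2c and the marker genes were named after their values were seen. Alternatives in edgeR were the size factors of DESeq2, library size alone, no filter and a filter of 1 CPM in 3 libraries. Further ones were DESeq2 1.42.0, a replicate block, each library left out in turn and, added after the data were seen, the authors' factors. The fit was tested on simulated data with a smaller spread than these data and no outlying library, which checks the code alone. The value of 1 listed gene is not reported here. Figures were drawn with matplotlib 3.10.9.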

Additional observations from a re-analysis of the deposited data

How the results depend on the processing

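None of the log2 fold changes of the 6 genes changed sign under any alternative. The 6 were picked for rising in these libraries, so nothing is read from the kept sign. Of 288 alternative values, 283 moved by less than 1 SD between replicates. The others were Svop over both steps with the authors' factors (2.64) and, with library size alone, S100a16 over both steps (1.70), Cpne2 in Ctr1-null against wild type (0.57) and over both steps (0.80), and Pcsk6 over both steps (1.30).

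Counts of called genes were less stable. For Ctr1-null against wild type, 2 genes were called, and 4 with DESeq2's size factors, 4 with library size alone, 4 with the 1 CPM filter, 4 with the authors' factors, 265 with no filter and 983 with DESeq2; leaving out 1 library gave 1 to 3254, the highest without wild type replicate 1 and 1 without any of wild type replicates 2 and 3, Ctr1-null replicate 3 and the BCS replicates. For BCS against Ctr1-null, 10 were called, 114 with no filter, 617 with DESeq2 and 0 to 183 with 1 library left out, again highest without wild type replicate 1, with 6 and 3 without wild type replicates 2 and 3, 1 without Ctr1-null replicate 1, 4 without BCS replicate 2 and 0 without any of the other 4. BCS-treated Ctr1-null cells against wild type gave 2916 calls and 568 to 5840 with 1 library left out; it fell to 568 without wild type replicate 3, 645 without wild type replicate 2, 796 without BCS replicate 1 and 640 without BCS replicate 3. Library size alone moved the higher share of these calls from 54% to 72.5%. The rising order without overlap held for 336 genes and for 374 to 821 with 1 library left out, with 677 without wild type replicate 1, 821 without Ctr1-null replicate 1, 534 without Ctr1-null replicate 3 and 545 without BCS replicate 2; fewer samples make such an order easier to meet. The causes were not tested.

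With a replicate block the counts were 1, 2 and 1543. Deviations of same-numbered libraries from their group means had correlations of -0.319 to 0.275. Differently numbered libraries were not compared, so these values cannot settle whether the numbers pair the samples. Each group has 3 libraries, which limits every call, and Svop in wild type rests on 48 to 59 counts.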
